A study of Mus musculus with 56 samples.

Results

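Glutathione S-transferases were followed here through 10 of the 18194 genes that had a probe set of their own on a mouse expression array, measured in liver RNA of mice given antisense oligonucleotides. The members were Gstm1, Gstm2, Gstm3 and Gstm6 of the mu class, Gsta3 and Gsta4 of the alpha class, Gstp1 of the pi class, and Gstt1, Gstt2 and Gstt3 of the theta class. A probe set counted when the array annotation gave it exactly 1 of these symbols, which was so for 15 of the 45101 probe sets. No probe set listed a member together with another gene.

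Glutathione S-transferases are cytosolic enzymes that join the thiol of the tripeptide glutathione to reactive, electrophilic molecules, which makes those molecules more soluble and ready for export. The liver holds large amounts of them because it meets drugs, dietary compounds and the breakdown products of oxidised lipids first. The genes lie in clusters that arose by duplication. Many of them are induced through the antioxidant response element, a DNA site bound by the transcription factor NRF2, or through the nuclear receptors CAR and PXR, which sense foreign compounds. Some members also remove products of oxidised lipid, and Gsta4 is the classical enzyme for the aldehyde 4-hydroxynonenal.

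The study compared LNA gapmers, short antisense oligonucleotides whose ends carry locked nucleic acid and whose DNA centre recruits RNase H to the RNA they pair with. Each array held the liver of 1 male mouse of the outbred CD-1 strain, aged 6 to 8 weeks when dosing began, and no allele or transgene was named. In the single-dose experiment, 25 mg/kg of gapmer NTS-1, TS-2 or HTS-3, or the vehicle DPBS (phosphate-buffered saline), was injected under the skin once. Vehicle livers came from 8, 16 and 72 h (3, 3 and 3 mice), NTS-1 livers from the same times (3, 4 and 3), TS-2 likewise (4, 3 and 4), and HTS-3 livers from 8 and 16 h (3 and 4). The labels call NTS-1 non-toxic, TS-2 toxic and HTS-3 severely toxic. No HTS-3 liver was taken at 72 h, because by day 3 those animals had died or been killed when moribund. In the 2-week experiment the injection was repeated on days 1, 4, 8 and 11, and liver was taken on day 14 from 10 mice given vehicle, 4 given NTS-1 and 5 given TS-2. The sources used here do not give the targets or base sequences of the gapmers. From 10 mice dosed per group and time, the submitters took the 3 or 4 livers that ranked highest for minor hepatic hypertrophy, so the animals on the single-dose arrays were not a random draw of those dosed.

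Where the members sit in the genome is given from RefSeq on mouse build GRCm38.p6. The 4 mu genes lie next to each other on chromosome 3, Gstm6 at chr3:107938847-107953641, Gstm3 at chr3:107963696-107969174, Gstm2 at chr3:107981702-107986420 and Gstm1 at chr3:108012250-108017973, with gaps of 10.1, 12.5 and 25.8 kb between them. The 3 theta genes form a second cluster, with Gstt3 at chr10:75774117-75781422, Gstt1 at chr10:75783813-75798584 and Gstt2 at chr10:75831842-75837419, separated by 2.4 and 33.3 kb. Gsta3 lies at chr1:21240565-21265575, Gsta4 at chr9:78191966-78209349 and Gstp1 at chr19:4035411-4037912. The positions of the probe sets within the transcripts were not used here.

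The promoter sequences shown are those of Gstm2 and Gstm3, the neighbours with the largest changes below, and of Gsta3, the one member whose window held the core of the antioxidant response element. Each is the 250 bases before a RefSeq transcript start on GRCm38.p6, written 5′ to 3′ along the gene's own strand. Capitals mark matches, on either strand, to the antioxidant response element core TGACNNNGC, the AP-1 site TGANTCA, the CCAAT box CCAAT and the TATA box TATAAA.
Gstm2, chr3:107986421-107986670, minus strand: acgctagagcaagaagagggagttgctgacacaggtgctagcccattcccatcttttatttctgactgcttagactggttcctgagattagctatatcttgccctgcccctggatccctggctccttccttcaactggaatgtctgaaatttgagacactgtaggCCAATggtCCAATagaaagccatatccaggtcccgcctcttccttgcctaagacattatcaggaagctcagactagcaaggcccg
Gstm3, chr3:107969175-107969424, minus strand: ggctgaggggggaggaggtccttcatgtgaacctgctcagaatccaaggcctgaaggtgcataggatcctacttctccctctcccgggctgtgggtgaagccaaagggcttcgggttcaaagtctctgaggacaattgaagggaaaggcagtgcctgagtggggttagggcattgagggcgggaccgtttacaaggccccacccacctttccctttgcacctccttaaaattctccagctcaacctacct
Gsta3, chr1:21240335-21240584, plus strand: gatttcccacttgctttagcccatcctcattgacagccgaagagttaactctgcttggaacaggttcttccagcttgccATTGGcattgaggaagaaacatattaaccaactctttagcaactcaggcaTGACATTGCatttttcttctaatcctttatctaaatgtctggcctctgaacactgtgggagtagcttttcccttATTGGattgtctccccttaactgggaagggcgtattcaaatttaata

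The Gstm2 window held a pair of CCAAT boxes side by side, at positions -85 to -81 and -77 to -73 counted from the transcript start. No match to these 4 motifs was in the Gstm3 window. The Gsta3 window held TGACATTGC, a match to the antioxidant response element core, at positions -121 to -113, and a pair of CCAAT boxes read on the other strand. RefSeq windows were at hand for 8 of the 10 members, 12 windows in all because some genes had more than 1 start. Of all 32851 mouse windows of this length, 10.2% held the antioxidant response element core against 1 of the 12 member windows, and 33.8% held a CCAAT box against 10 of the 12. The core of the xenobiotic response element, GCGTG, was in 28.2% of all windows and in 3 of the 12, and the STAT motif TTCNNNGAA was in 7.02% and in 1 of the 12. The AP-1 site was in 6.75% of windows and in 1 member window, that of Gstp1, and the TATA box in 12.4% and in 1, that of Gstm1. Several member windows overlap each other, and a match is a run of letters and not a shown binding site. Optimally aligned, the Gstm2 and Gstm3 windows were identical at 61.2% of their 250 bases, within the 52.4 to 63.2% found over all pairs of members.

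The deposited values were linear intensities, and those of the single-dose arrays and the 2-week arrays lay on different scales. The array medians were 4.62 to 4.73 on the 37 single-dose arrays and 37.68 to 41.07 on the 19 of the 2-week experiment, with highest values of 123682 to 161420 and 32516 to 36010. The experiments were therefore fitted apart, and no level is set across them. The 6 hepatocyte markers were above an intensity of 32 on every array, and Alb, the serum albumin gene, ran from 64004 to 90147 in the single-dose livers. In whole liver, fewer cells of a type and less RNA per cell cannot be told apart. One mouse had labels that differ: the title of the third HTS-3 liver at 8 h says 8 h and its description 16 h. It was kept at 8 h. In each HTS-3 comparison limma called 0 of the 10 members with it moved to 16 h, and likewise with it left out of those it enters.

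After 2 weeks of TS-2, 4 of the 10 glutathione S-transferases rose against vehicle and none fell. Gstm2 and Gstm3 rose most, by 4.30-fold and 3.33-fold, and Gsta4 and Gstm1 rose by 1.39-fold and 1.30-fold. The calls are those of limma at a Benjamini-Hochberg adjusted p of 0.05 over the 13812 genes tested. This comparison moved much of the transcriptome: 38.9% of all genes tested passed, and 23.8% passed with a higher level in TS-2. The count of 4 in 10 is thus close to the background, while the median log2 change of the 10 members was 0.27 beside -0.0045 over all genes tested.

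Gstm2, a mu enzyme, had intensities of 2039.7, 7009.8, 3015, 8900.4 and 7808 in the 5 TS-2 mice, while the 10 vehicle mice ran from 895 through a median of 1109 to 1495. All 5 TS-2 mice lay above the highest vehicle mouse, though the lowest and the highest of them were far apart. The log2 change was 2.11 ± 0.26 (SE), with a 95% interval of 1.56 to 2.65 and a limma adjusted p of 6.79e-06. The SD of log2 intensity was 0.94 in TS-2 and 0.20 in vehicle. Every SE and interval here rests on 1 estimate of spread shared by all groups of an experiment. Intervals can therefore be too narrow where the TS-2 mice spread more than the vehicle mice, as they did here.

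Gstm3, its neighbour in the mu cluster, had intensities of 8383, 22229.97, 14084, 23961 and 23253 in TS-2, against 3597, 5079.7 and 7888 as the lowest, median and highest vehicle values. Again the groups did not overlap, and the first TS-2 mouse lay just above the vehicle range and the other 4 well clear of it. Its log2 change was 1.74 ± 0.21, with an interval of 1.30 to 2.17 and a limma adjusted p of 4.71e-06. The 3 highest Gstm3 values were within a factor of 2 of the highest values on these arrays, so the top of the intensity scale is near, and its part in the size of the change was not tested.

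Gstm1, the abundant mu enzyme of mouse liver, moved less and more evenly. The TS-2 mice had intensities of 17144, 20767, 18588, 21560.5 and 19554, and the vehicle mice ran from 12938 through 14718 to 17042. The lowest TS-2 value was just above the highest vehicle value. Its log2 change was 0.38 ± 0.08, with an interval of 0.22 to 0.54 and a limma adjusted p of 6.15e-04. Its values in TS-2 also came near the top of the intensity scale, whose part in the size of this change was not tested. Gstm6, at the other end of the cluster, did not pass: its intensities in TS-2 were 1741, 1617, 2087, 1590.1 and 682, those in vehicle ran from 1403 through 1980.1 to 2354, and the log2 difference was -0.39 with an interval of -0.81 to 0.03. The fifth TS-2 mouse was the lowest of the 19 for Gstm6, and without it the difference was -0.12.

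**Figure D1:**
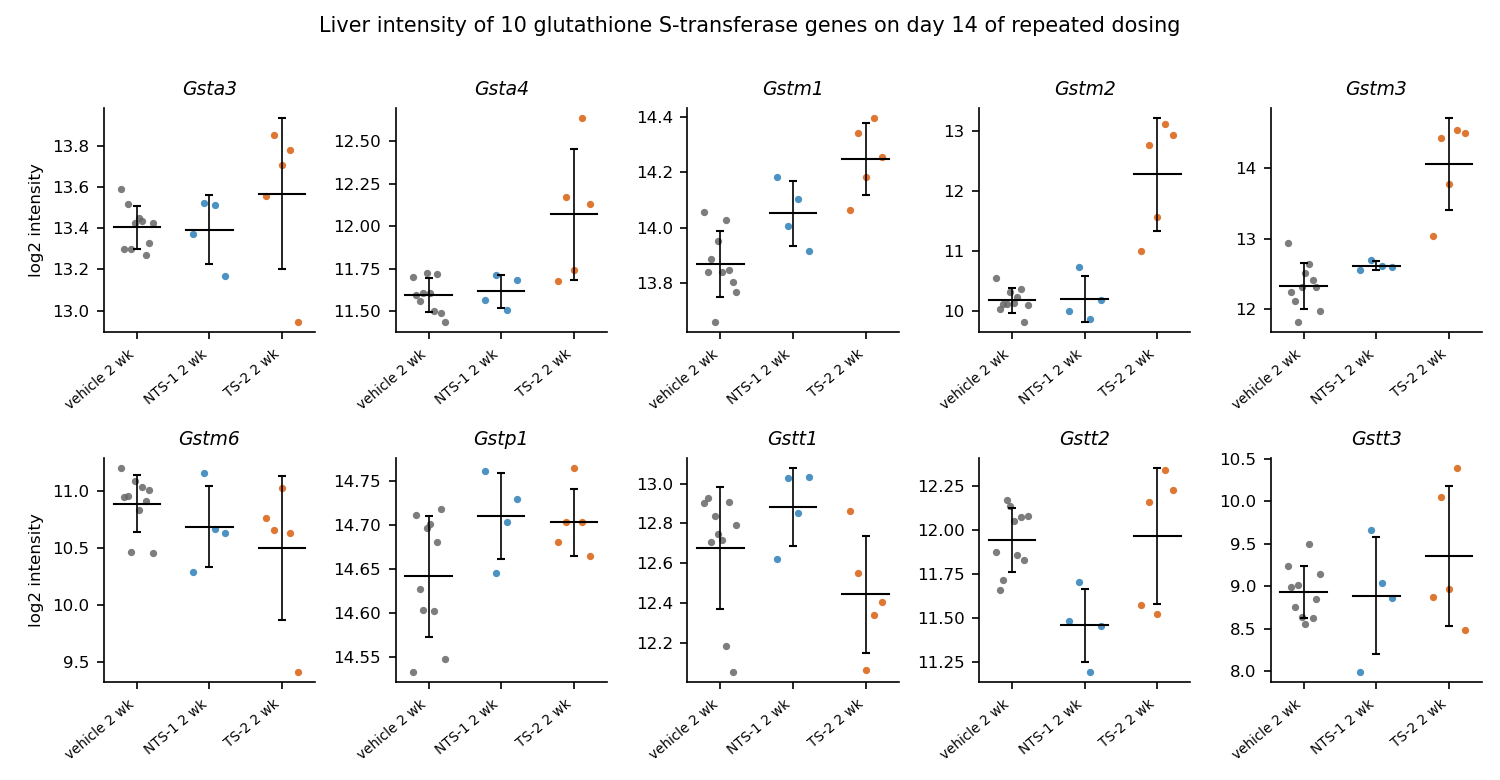
Log2 intensity of each of the 10 glutathione S-transferases after 2 weeks, with 1 point per mouse for vehicle (10 mice), NTS-1 (4) and TS-2 (5), a line at each group's mean and error bars of 1 SD. All TS-2 points of Gstm2, Gstm3 and Gstm1 lie above all vehicle points, and 3 of the TS-2 mice are far above the other 2 for Gstm2.

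Among the alpha enzymes, Gsta4 rose and Gsta3 did not pass. Gsta4 had intensities of 3280.5, 4607, 3425, 6371 and 4479.9 in TS-2, while vehicle ran from 2767 through 3107 to 3388. The first TS-2 mouse lay inside the vehicle range, so the groups overlapped. The log2 change was 0.48 ± 0.11, with an interval of 0.24 to 0.72 and a limma adjusted p of 0.00255. The SD of log2 intensity was 0.39 in TS-2 and 0.10 in vehicle, so the shared spread may make this interval too narrow. Gsta3 stood at 12059.9, 14792, 13371, 14083 and 7876 in TS-2 and between 9875 and 12332 in vehicle. TS-2 mice 2, 3 and 4 lay above every vehicle mouse and mouse 5 below every one. The log2 difference was 0.16 with an interval of -0.08 to 0.40. It was 0.32 with an adjusted p of 0.00608 without TS-2 mouse 5, and 0.09 with 0.573 without TS-2 mouse 2.

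The pi and theta enzymes did not pass. Gstp1, the pi enzyme, had TS-2 intensities of 25981 to 27848, vehicle values of 23712 to 26954 and a log2 difference of 0.06 whose interval ran from -0.06 to 0.18. Gstt1, which acts on small halogenated compounds, had TS-2 intensities of 7457, 5998, 4274, 5185 and 5414 beside a vehicle median of 6982, a log2 difference of -0.23 with an interval of -0.55 to 0.08. Gstt2 differed by 0.02 with an interval of -0.26 to 0.30. Gstt3 had 469, 1065, 503, 1345 and 360.2 in TS-2 and 377 to 724 in vehicle, so mice 2 and 4 lay above the vehicle range and mouse 5 below it, with a log2 difference of 0.43 and an interval of -0.16 to 1.01. Without mouse 4 the Gstt3 difference was 0.17, and without mouse 5 it was 0.64. These intervals leave room for modest changes in either direction for Gstt2 and mostly downward for Gstt1. For Gstt3 they leave room for a rise of up to 1.01 on the log2 scale. Gstp1 lay closer than Gstm3 to the highest values on these arrays, 32516 to 36010. The part of the scale in its small difference was not tested.

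The TS-2 mice differed among themselves in a shared order. Taken as folds over the vehicle mean, Gstm2 stood at 1.77, 6.09, 2.62, 7.73 and 6.78 in mice 1 to 5, and Gstm3 at 1.63, 4.33, 2.74, 4.66 and 4.53. Mice 2, 4 and 5 were highest for both genes and mouse 1 lowest. Of the 10 members, 7, 8, 8, 8 and 6 were above their vehicle mean in mice 1 to 5. None of the 4 rises was lost when any 1 of the 15 mice was left out: Gstm2 then ran from 1.89 to 2.43, Gstm3 from 1.61 to 1.99, Gsta4 from 0.34 to 0.58 and Gstm1 from 0.34 to 0.43 on the log2 scale.

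**Figure D2:**
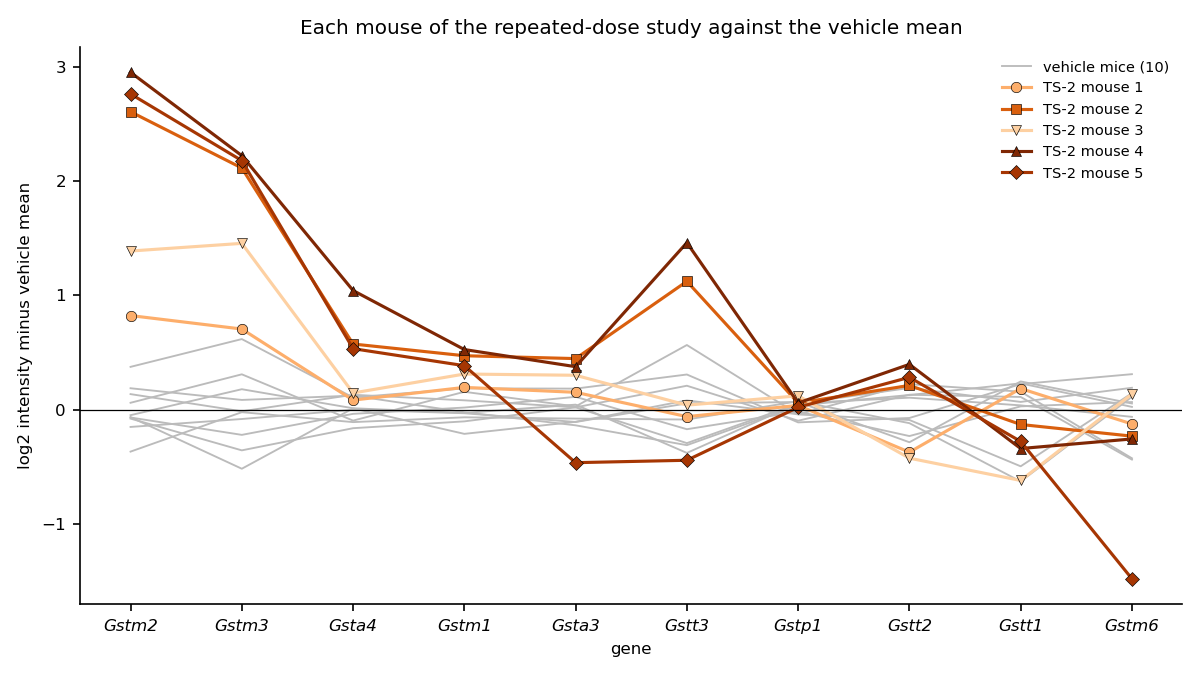
Log2 intensity minus the vehicle mean for each member (horizontal axis), with 1 coloured line per TS-2 mouse (5) and 1 grey line per vehicle mouse (10) after 2 weeks. Gstm2 and Gstm3 are above 0 in all 5 mice and highest in mice 2, 4 and 5, and mouse 5 is the lowest for Gstm6 and Gsta3.

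Genes with more than 1 probe set gave a check within the arrays. The other Gstm3 probe set had a log2 change of 2.36 beside the 1.74 of the one used, and both passed in a limma fit with a row per probe set. All 4 Gstm1 probe sets passed as well, with log2 changes of 0.38, 0.51, 0.53 and 0.54. The other Gsta3 probe set had 0.30 and did not pass (limma adjusted p 0.163). Of the 15 member probe sets, 3 carry the array maker's mark for probes that can match related transcripts. They include those from which Gstm3 and Gstm1 were read, at 1.74 and 0.38, while the other Gstm3 probe set is unmarked. The mu genes are close paralogues, so signal shared between Gstm genes cannot be told apart from a change of each. The Gstm3 probe sets correlated at 0.99 over the 19 arrays of the 2-week experiment, and the Gsta3 pair at 0.64.

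The comparison between the gapmers after 2 weeks asks which of these changes set the toxic sequence apart from the non-toxic one at the same dose and schedule. Against NTS-1, 4 of the 10 members were higher in TS-2 and none lower, where 22% of all genes tested passed and 14.8% passed upward. Gstm2 was 4.25-fold higher, a log2 difference of 2.09 ± 0.32 (limma adjusted p 4.29e-04), and Gstm3 2.73-fold higher, at 1.45 ± 0.25 (limma adjusted p 0.00111). The NTS-1 mice had Gstm2 intensities of 1015, 1694, 928 and 1163 and Gstm3 intensities of 6007, 6663, 6276 and 6171. For both genes every NTS-1 mouse was below every TS-2 mouse. Over all genes tested the groups did not overlap in 16.5%, and for TS-2 against vehicle in 11.9%.

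Gsta4 and Gstt2 also passed against NTS-1, less firmly. Against vehicle, Gstt2 was at 0.02 with TS-2 and at -0.48 with NTS-1, and neither passed. Its difference between the gapmers thus lay mostly on the NTS-1 side. The Gsta4 difference was 0.45 ± 0.14 (limma adjusted p 0.0266), from NTS-1 intensities of 3033, 3358, 2906.5 and 3285.  The Gstt2 difference was 0.51 ± 0.16 (limma adjusted p 0.0326), from 2866, 3331, 2343 and 2807 in NTS-1 and 3049, 4567, 2940.1, 5190.4 and 4798 in TS-2. Each of these calls rested on single mice: that of Gsta4 was lost without any 1 of NTS-1 mice 1 and 3 or TS-2 mice 2, 4 and 5, and that of Gstt2 without any 1 of NTS-1 mice 1, 3 and 4 or TS-2 mice 2, 4 and 5. With vehicle left out of the fit, the limma adjusted p was 0.121 for Gsta4 and 0.109 for Gstt2. Gstm1 was 0.20 higher in TS-2 than in NTS-1 and did not pass (limma adjusted p 0.138), and none of its 4 probe sets passed. Gstt1 was at -0.44 with an adjusted p of 0.0882, and at -0.54 with 0.0313 without TS-2 mouse 1. Without TS-2 mouse 5, Gsta3 was 0.33 higher in TS-2 with an adjusted p of 0.0317.

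For NTS-1 against vehicle after 2 weeks, limma called none of the 10 members, where 5.43% of all genes tested passed. That share itself rests on single mice, with 1.25% without NTS-1 mouse 3 and 9.69% without vehicle mouse 2. At an unadjusted p under 0.05 there were 2, Gstm1 and Gstt2, where 2874 of all 13812 genes tested had such a p. The 2 of 10 members are thus close to the background. Gstt2 in NTS-1 lay at -0.48 ± 0.14 from vehicle with a limma adjusted p of 0.0538, close to the threshold: 3 of the 4 NTS-1 mice were below the lowest vehicle mouse, at 3238, and the second mouse was inside the range. Without vehicle mouse 2 the difference was -0.52 with an adjusted p of 0.0294, and without NTS-1 mouse 3 it was -0.40 with 0.197. Gstm1 was 0.18 above vehicle (limma adjusted p 0.208), with NTS-1 intensities of 18609, 16454, 17611 and 15458. Gstm3 was 0.29 above vehicle and Gstm2 within the vehicle range in 3 of 4 mice. The median change of the members was 0.02, beside 0.01 over all genes tested. NTS-1 and TS-2 share the same 10 vehicle mice. In the order of the samples, vehicle mice 1 to 5 stand before the NTS-1 mice and vehicle mice 6 to 10 before the TS-2 mice. Whether this order marks a batch was not tested.

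After a single dose, limma called none of the 10 glutathione S-transferases in any of the 8 comparisons of a gapmer with vehicle of the same time. All 10 members were above the intensity limit and tested, among 9134 genes. For NTS-1, limma called 0 of 10 at 8, 16 and 72 h, where 0.876%, 0.263% and 0% of all genes tested passed. For TS-2 it called 0 of 10 at each time, where 0%, 0.0109% and 0.241% passed. For HTS-3 it called 0 of 10 at 8 h, where 0.887% passed, and 0 of 10 at 16 h, where 16.9% passed, or 10.6% with the mouse of unsettled time moved to 16 h. With few genes passing anywhere in 7 of these 8 comparisons, a count of 0 says little about the members beyond the size of their intervals. In NTS-1 at 72 h and TS-2 at 8 h no gene passed, while 225 and 381 had an unadjusted p under 0.05. Among the members, an unadjusted p under 0.05 was found for Gsta4 with TS-2 at 72 h, Gstt3 with HTS-3 at 8 h and Gsta4 with HTS-3 at 16 h, and for none in the other 5. Of the 9134 genes tested, 399, 1022 and 2754 had such a p in those comparisons, in the same order.

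Gstm2 and Gstm3, the pair that rose after 2 weeks of TS-2, did not pass after 1 dose of it. The effects after 1 dose and after 2 weeks lie on different scales, and their difference was not tested. At 72 h the Gstm2 intensities were 7945, 10325.5, 6185 and 7387 in TS-2 and 6503, 5856 and 8177 in vehicle. The groups overlapped, and the log2 difference was 0.21 ± 0.30. Gstm3 stood at 6208, 10684, 12379.5 and 7665 in TS-2 and at 7496, 7616 and 6759 in vehicle, a log2 difference of 0.29 ± 0.32. The highest upper 95% bound of any member in that comparison was 1.17, for Gstt3. At 8 h the lowest member with TS-2 was Gstm2 at -0.42 ± 0.30, from 2356, 6215, 8094 and 6544 in TS-2 against 7425, 5052 and 9397 in vehicle, where 1 TS-2 mouse lay far below the others, and without it the difference was -0.03. At 16 h the lowest was Gstt1 at -0.59 ± 0.36, and at -0.16 without TS-2 mouse 1.

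Gsta4 had the smallest unadjusted p of the members with TS-2 at 72 h and with HTS-3 at 16 h. At 72 h the TS-2 mice had 7191, 6294, 5777 and 6114 and the vehicle mice 5136, 5448 and 4983, so the groups did not overlap. The log2 difference was 0.29 ± 0.14, with an unadjusted p of 0.0445 and a limma adjusted p of 1. At 16 h the HTS-3 mice had 5649, 6766, 6507 and 6046 and the vehicle mice 4189, 4672 and 6189, which overlap through the third vehicle mouse. The difference was 0.33 with a limma adjusted p of 0.0936. It was 0.49 with an adjusted p of 0.0215 when that vehicle mouse was left out, and 0.21 with 0.439 when the first vehicle mouse was. Neither comparison called Gsta4 with all mice in. The share of all genes without overlap was not counted for the single-dose comparisons. With so few mice per group, a lack of overlap there does not mark a member out.

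The largest single-dose difference from vehicle was that of Gstt3 with HTS-3 at 8 h. The HTS-3 mice had 602, 744 and 620.4 and the vehicle mice 2958, 864 and 1020.3, so the groups did not overlap and 1 vehicle mouse was far above the rest. The log2 difference was -1.08 ± 0.49, with an interval of -2.08 to -0.08 and a limma adjusted p of 0.382. Without the vehicle mouse at 2958 it was -0.53 with an adjusted p of 0.876. With the mouse of unsettled time left out, or moved to 16 h, the difference was -1.04 with adjusted p of 0.450 and 0.566, and limma again called 0 of the 10. At 16 h, Gstm2 was lowest with HTS-3, at -0.55, from 4561, 5368, 3759 and 5461 against 8562, 6178 and 6259.8 in vehicle. All 4 HTS-3 mice were below all 3 vehicle mice, with a limma adjusted p of 0.225. Moving the mouse of unsettled time to 16 h left 0 members called there too.

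**Figure D3:**
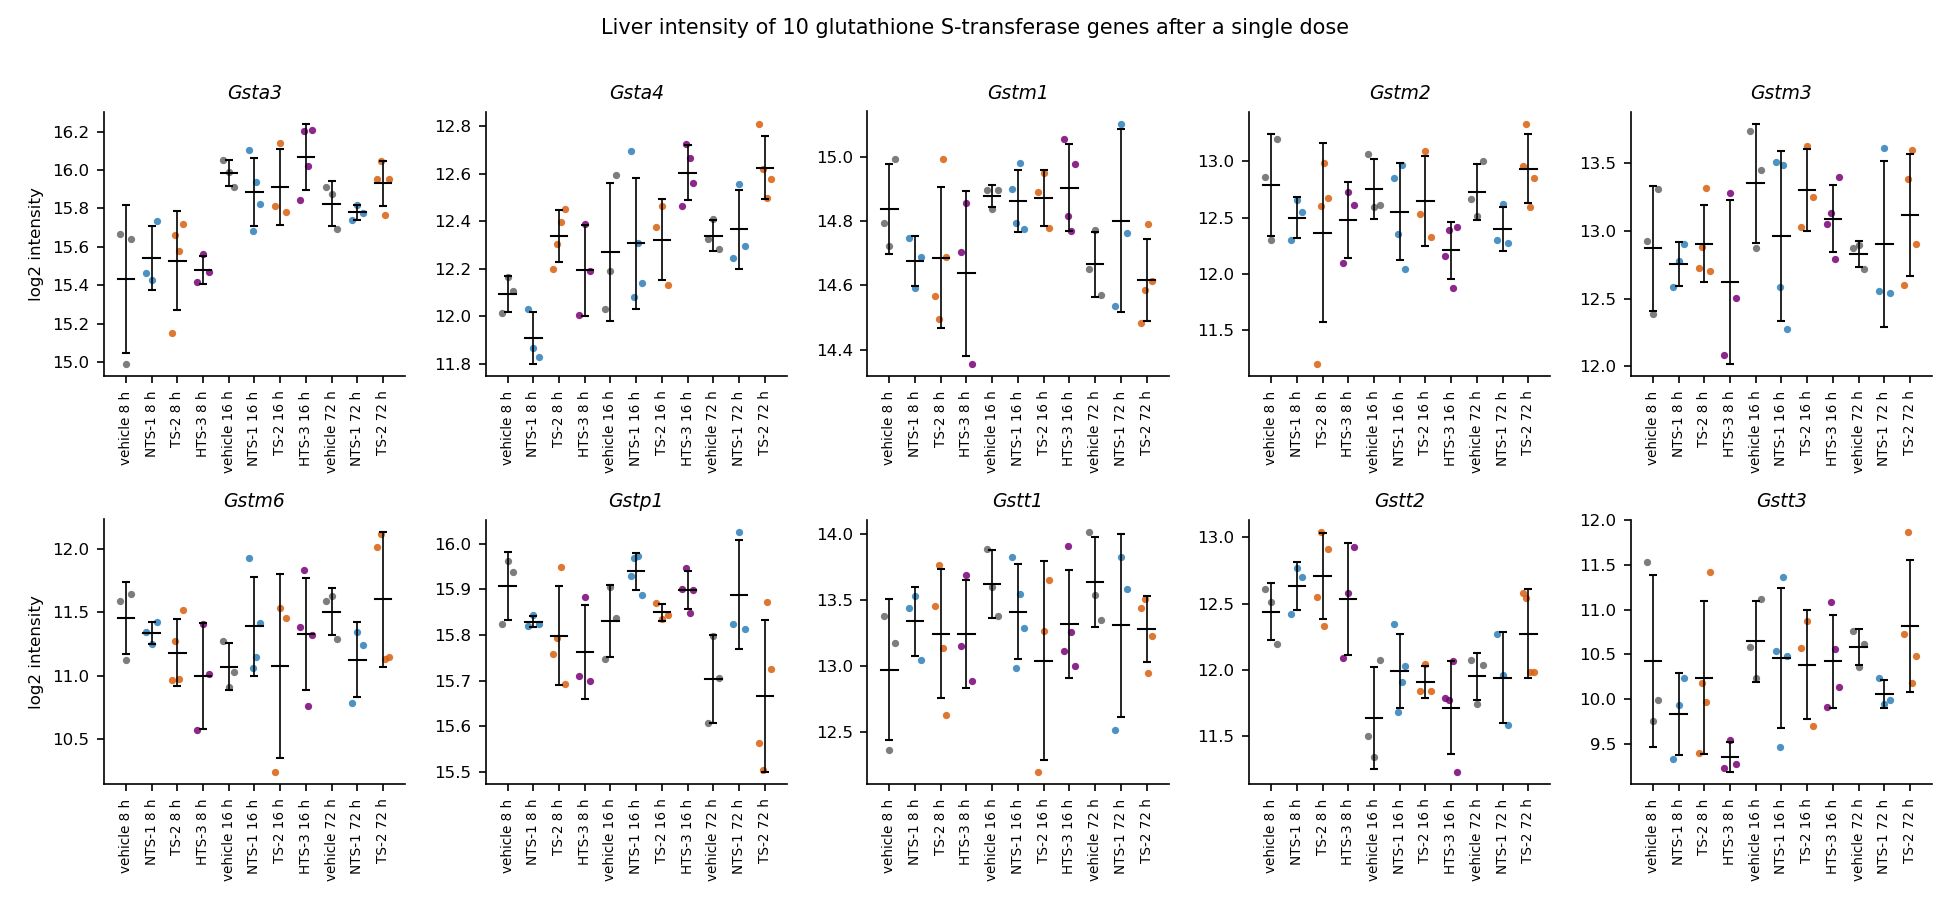
Log2 intensity of each member in the 11 single-dose groups, 1 point per mouse with a line at the mean and error bars of 1 SD, ordered by time and treatment. Treated and vehicle mice of a time overlap for most members, and Gsta3 and Gstt2 differ between 8 h and 16 h in opposite directions.

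The gapmers were also set against each other at the same time after 1 dose, and again 0 of 10 members passed in every such comparison. For TS-2 against NTS-1, 0.865%, 0.493% and 0.263% of all genes passed at 8, 16 and 72 h. For HTS-3 against TS-2, 0.526% and 13% passed at 8 and 16 h, and for HTS-3 against NTS-1, 1.16% and 21.4%. Gsta4 was higher in TS-2 than in NTS-1 at 8 h, with intensities of 4704, 5065, 5392 and 5601 against 4189, 3732 and 3633. The groups did not overlap, the log2 difference was 0.43 ± 0.14, and the limma adjusted p was 0.265. It was the member with the smallest unadjusted p in HTS-3 against TS-2 and against NTS-1 at 16 h as well, with differences of 0.28 and 0.30 and limma adjusted p of 0.200 and 0.0950. Without NTS-1 mouse 1 the second of these was 0.43 with an adjusted p of 0.0138, and without NTS-1 mouse 2 it was 0.22 with 0.257. Without TS-2 mouse 3 the first was 0.19 with an adjusted p of 0.571. With the mouse of unsettled time left out or moved, the Gstt3 difference between HTS-3 and TS-2 at 8 h went from -0.89 to -0.85 and that between HTS-3 and NTS-1 from -0.48 to -0.45. At 72 h the member with an unadjusted p under 0.05 between TS-2 and NTS-1 was Gstp1, at -0.22 with a limma adjusted p of 0.593. Of the 9134 genes tested, 619 had such a p there. These comparisons share mice with each other and with those against vehicle.

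Whether an effect differed between times was tested by interaction. For HTS-3 at 16 h against 8 h, 0 of 10 members passed, where 3.23% of all genes did, and the largest difference of effects was that of Gstt3 at 0.86 ± 0.67. With the mouse of unsettled time moved to 16 h, 1.18% of all genes passed and the Gstt3 value was 0.59, and with that mouse left out it was 0.82. For TS-2 at 72 h against 8 h, 0 of 10 passed, where 0.0766% of all genes did, with Gstm2 at 0.63 and Gstt1 at -0.63 as the extremes. No member had an unadjusted p under 0.05 in either, where 1367 and 287 of the 9134 genes tested had one. All of these intervals are wide, and the highest upper bound in the HTS-3 interaction was 2.23, for Gstt3.

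Vehicle mice of different times after injection differed in 2 members, Gsta3 and Gstt2, by amounts that came near the threshold without passing it. Gsta3 had vehicle intensities of 52061, 32574 and 51133 at 8 h and 67863, 65097 and 61669 at 16 h. The groups did not overlap, with a log2 difference of 0.55 ± 0.16 and a limma adjusted p of 0.0619. Without the first vehicle mouse at 8 h the difference was 0.67 with an adjusted p of 0.0464, and without the second, at 32574, it was 0.33 with 0.478. Gstt2 went the other way, from 6257, 5837 and 4700.0 at 8 h to 2896, 2592 and 4316 at 16 h, a difference of -0.80 ± 0.24 with a limma adjusted p of 0.0892. In vehicle at 16 against 8 h, 0 of 10 members and 2.11% of all genes passed, and at 72 against 8 h 0 of 10 and 1.93%. At an unadjusted p under 0.05 there were 2 members at each, Gsta3 and Gstt2 and then Gsta3 and Gstp1. Of the 9134 genes tested, 1028 and 1133 had such a p. The other Gsta3 probe set passed at 16 against 8 h in the fit with a row per probe set, at 0.74 with a limma adjusted p of 0.0150.

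The values of all treatments together had the same order of times for these genes. Over all treatments, Gsta3 ran from 32574 through a median of 48352 to 54439 in the 13 mice at 8 h, from 52657 through 63873 to 75742 in the 14 at 16 h, and from 52980 through 58869 to 67792 in the 10 at 72 h. Gstt2 ran from 4354 through 6115 to 8451 at 8 h, from 2399.9 through 3663 to 5204 at 16 h, and from 3071 through 4122 to 6134 at 72 h. Both genes overlapped between the times, by a few mice at 8 and 16 h. The sources used here do not give the clock time of injection or collection, so hours after injection and hour of the day cannot be told apart.

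**Figure D4:**
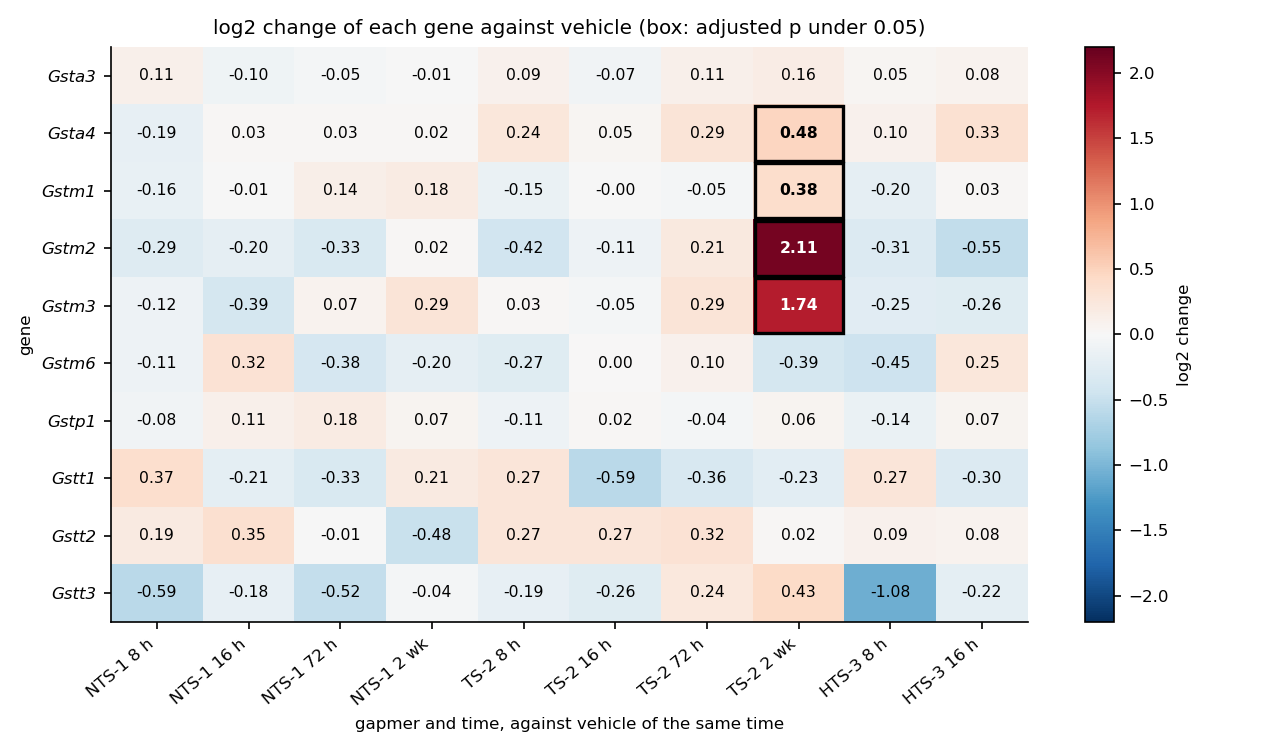
Log2 change of each of the 10 members (rows) in each of the 10 comparisons of a gapmer with vehicle (columns), with a box around each call of limma. The boxed cells are Gstm2, Gstm3, Gsta4 and Gstm1 with TS-2 after 2 weeks, and no single-dose cell is boxed.

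The correlations among the mu pair and Gsta4 were higher in the 2-week experiment than after a single dose, a difference that was not tested. Over the 19 mice of the 2-week experiment, which share treatment groups, log2 intensities of Gstm2 and Gstm3 correlated at 0.955, and at 0.824 after each group's mean was taken off. Gsta4 and Gstm2 correlated at 0.920 and 0.866 in the same way, and Gstm1 and Gstm3 at 0.895 and 0.762. Taking off the means leaves unequal spreads: the SD of Gstm2 was 0.94 in the 5 TS-2 mice and 0.20 in the 10 vehicle mice. The within-group values of pairs with Gstm2 therefore rest largely on the TS-2 mice. Over the 37 single-dose mice, Gstm2 and Gstm3 correlated at 0.512 overall and 0.600 within groups, Gstm1 and Gstm3 at 0.610 and 0.652, and Gstm1 and Gstp1 at 0.695 and 0.588. Gsta4 correlated there at 0.158 and 0.340 with Gstm2 and at 0.369 and 0.347 with Gstm3. Gstm1 and Gstt2 ran against each other, at -0.563 and -0.468. All points of such a pair come from the same arrays and share their normalisation.

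The genes most like each member were found by the same correlation over all genes tested, with the group means left in. Genes that TS-2 changed strongly can rank high for that reason alone, and no correlation within groups is given for them. In the 2-week experiment those nearest to Gstm2 were Ywhah, Srxn1 and Nudt18, at 0.985, 0.976 and 0.970. Srxn1, sulfiredoxin, repairs oxidised peroxiredoxins. Those nearest to Gstm3 were Synpo, Uhrf1bp1 and Cdk11b, at 0.969, 0.966 and 0.963, those nearest to Gsta4 were Tinag, Kbtbd8 and Prmt6, at 0.967, 0.941 and 0.936, and those nearest to Gstm1 were Rnf123, Slc25a39 and Dcakd, at 0.943, 0.921 and 0.919. Slc25a39, a mitochondrial carrier needed for the import of glutathione, was also among the 3 nearest to Gstm1 over the single-dose mice, at 0.801. For the other members the nearest gene in the 2-week mice was Gstm7 for Gstm6 at 0.821, Atg12 for Gstt2 at 0.901, Mpv17l for Gsta3 at 0.852, Klk12 for Gstt1 at 0.806, Lrrc24 for Gstt3 at 0.794 and Tpmt for Gstp1 at 0.743. Over the single-dose mice the nearest correlations were lower for most, from 0.565 for Gstt1 with Ddt to 0.858 for Gstp1 with Ambp.

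Other genes of the glutathione system were read from 7 lists, each given as a count with the median log2 change beside the -0.0045 of all genes tested with TS-2 after 2 weeks. The counts are to be read against the 38.9% of all genes that passed there and the 23.8% that passed upward. Of the other glutathione transferases, 15 of 19 were tested, 1 rose and 2 fell, with a median of -0.04. Gsta2, an alpha enzyme, rose by 0.73 ± 0.20 (limma adjusted p 0.00539), while Gstz1, which also acts in tyrosine breakdown, changed by -0.72 and Gsto1, an omega enzyme, by -0.43. Of the genes for making, reducing and breaking down glutathione, 17 of 20 were tested, 6 rose and 4 fell, with a median of 0.11. Gclm, the modifier subunit of the rate-limiting ligase, rose by 0.47, whereas Cth, which makes cysteine, changed by -0.79, Chac2, which splits glutathione, by -0.89 and Gnmt, a glycine methyltransferase, by -0.47.

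The glutathione-using peroxidases, glutaredoxins and glyoxalases had 13 of 17 genes tested, with 5 higher, 1 lower and a median of 0.03. Leaving out each mouse gave 4 to 6 called genes for this list. For the list of making, reducing and breaking down glutathione it gave 8 to 10. Gpx2, a glutathione peroxidase, rose by 0.76, Lancl1 by 0.45 and Glrx2, a mitochondrial glutaredoxin, by 0.33, and Hagh, the second enzyme of the glyoxalase system, changed by -0.48. Of the transporters that carry conjugates out of the cell, 6 of 9 were tested, 2 rose and 2 fell, with a median of -0.08. Abcc2, the canalicular exporter of glutathione conjugates, rose by 1.29 (limma adjusted p 4.35e-05), and Abcc6 changed by -0.58. The Abcg2 rise of 0.33 was lost without TS-2 mouse 1 or 4 and the Gpx2 rise without TS-2 mouse 4 or 5. The Abcc4 change of -0.49 was lost without TS-2 mouse 2, 3 or 4 or vehicle mouse 1, 3, 4, 5, 7 or 10, so that the transporter count of 4 fell to 2 at its lowest.

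The reporters of NRF2 activity had 15 of 16 genes tested, of which 10 rose and none fell, with a median of 0.81. Srxn1 rose by 2.08 ± 0.29 (limma adjusted p 2.25e-05), Ugdh, which makes UDP-glucuronate, by 1.28, Entpd5 by 1.02 and Ephx1, microsomal epoxide hydrolase, by 0.92. The 5 TS-2 mice had Srxn1 intensities of 577, 1398, 696, 3482 and 2112, so mice 2, 4 and 5 were highest, as they were for Gstm2. Nqo1, a quinone reductase, rose by 1.37. The list shares Gclc, Gclm, Gsr and Slc7a11 with the synthesis list and Nqo1 with the CAR, PXR and AHR list, so these counts are not separate evidence. Of 11 CAR, PXR and AHR reporters tested out of 12, 2 rose and 4 fell, with a median of -0.14. Cyp2b10, the classical CAR reporter, changed by -2.90 (limma adjusted p 4.41e-06), Ces2a by -1.15 and Cyp2c29 by -0.58, or by -0.34 without TS-2 mouse 5. Of 18 regulators tested out of 19, 9 rose and 2 fell, with a median of 0.40: Nfe2l2, which encodes NRF2, rose by 1.11, its inhibitor Keap1 by 0.65, Cebpb by 1.47 and Hnf4a by 0.86. Leaving out each mouse gave 10 to 12 called NRF2 reporters and 9 to 12 called regulators. The CAR, PXR and AHR count then ran from 4 to 8.

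With NTS-1 after 2 weeks, 3 of the 91 different list genes tested passed, where 5.43% of all genes did, Gstz1 at -0.47, Chac2 at -0.70 and Hnf4a at 0.52. After a single dose the lists, with 79 different genes tested, held a called gene in 1 of the 8 comparisons with vehicle, HTS-3 at 16 h. Of all genes 16.9% passed there, 10.6% with the mouse of unsettled time moved to 16 h and 11% without HTS-3 mouse 4 of 16 h. The list genes were not refitted in those ways. How many of them passed is not given, so no count is set against those shares. There Nfe2l2 rose by 1.08 ± 0.21 (limma adjusted p 5.19e-04), Ahr by 0.74, Oplah by 1.43, Gss, glutathione synthetase, by 0.50 and Aox1 by 1.10, while Gsr, glutathione reductase, changed by -0.93 and Cyp2c55 by -1.39. None of the 11 other glutathione transferases tested passed there.

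**Figure D5:**
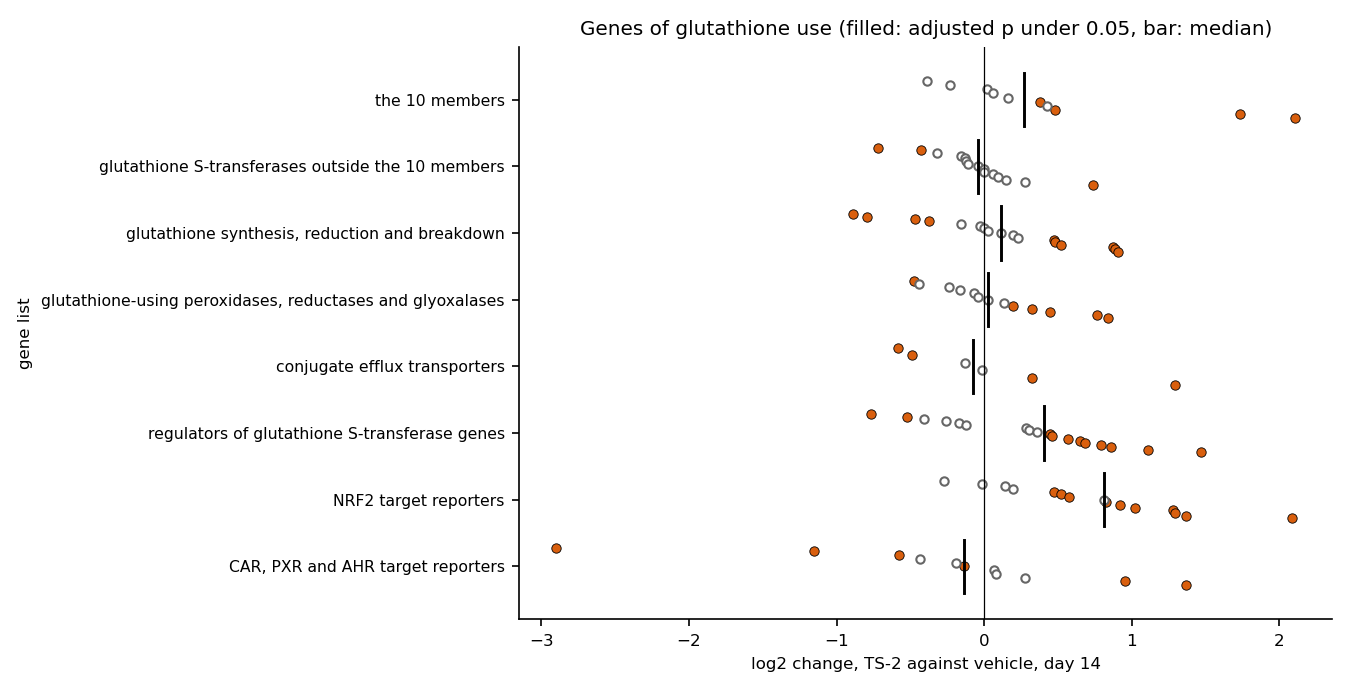
Log2 changes of the genes of the 7 lists and of the 10 members with TS-2 against vehicle after 2 weeks, 1 point per gene tested, with a bar at the list's median and genes past the threshold filled. The NRF2 reporters have the highest median, at 0.81, and the members a median of 0.27.

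Markers of liver cell types were read in the same TS-2 mice, and their part in the members' changes was not tested. Their counts are to be read against the 38.9% of all genes that passed there and the 23.8% that passed upward. Some marker calls rested on single mice. That of Cd68, a macrophage marker, was lost without TS-2 mouse 5, and that of Cyp2f2, a periportal one, without TS-2 mouse 4 or 5. Of the 15 fits that each left out 1 mouse, 9 lost Apoa1, 9 lost Arg1 and 7 lost Col3a1. Summed intensity of the 8 macrophage markers tested was 2467 to 16573 in TS-2 and 1878 to 7538 in vehicle, and 2 of them rose. The sum of 16573 was that of mouse 5, which was also lowest for Gstm6 and Gsta3, and the other 4 mice lay at 2467 to 4429. Endothelial markers summed to 951 to 2372 in TS-2 and 2200.5 to 3694 in vehicle, with 4 of 6 lower, and stellate markers to 5740.4 to 11598 against 4302 to 7137, with 3 of 7 higher. Hepatocyte markers summed to 127380 to 130343 against 127135 to 133276, with 1 of 6 higher and 1 lower. Pericentral markers, which include Cyp2c29 of the CAR list, summed to 44304 to 78640.5 against 65693 to 80303, with 1 of 10 higher and 2 lower. TS-2 mice 2, 4 and 5, the highest for Gstm2 and Gstm3, had pericentral sums of 59436, 55194 and 44304, below every vehicle mouse, while mice 1 and 3 were inside the vehicle range. Periportal markers summed to 30933 to 42732 against 36554 to 48313, with 1 of 8 higher and 3 lower. Neither the 4 cholangiocyte, the 4 neutrophil nor the 3 lymphocyte markers tested held a called gene, nor did the 1 erythroid marker. No deposited value was 0. The log2 ratio of the 3 prime to the 5 prime probe sets of Actb, a sign of RNA quality, was 1.41 to 1.66 in TS-2 and 1.36 to 1.87 in vehicle.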

How the data were processed

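Liver RNA of 56 mice in 14 groups was hybridised to an array of 45101 probe sets. The deposited values were linear intensities that the authors made with RMA, per the submitters' processing notes. The sources used here name no version or settings for it. Log2 was taken here, and the 37 single-dose and 19 2-week arrays were fitted apart. The array annotation gave 34958 probe sets 1 gene, 932 several and 9211 none, and 34754 were matched to RefSeq by gene ID. A gene was read from its probe set of highest mean and tested where its intensity reached 32 on at least 3 arrays, which kept 9134 and 13812 genes. The 22 comparisons were fitted with limma 3.58.1 in R 4.3.3, 1 linear model per experiment with all its groups, with Benjamini-Hochberg adjustment over all genes tested and a threshold of 0.05. The p-values set a difference of group means against the spread between mice, estimated over all groups of an experiment. The fit was run on simulated normal values with the same SD in every group, which does not cover groups of unequal spread. Promoter windows were searched with Python 3.11.15 and aligned with Biopython 1.88. Replicate numbers in the titles were checked for pairing and did not pair the mice, with correlations of -0.48 to 0.46 and in 0 of 20 comparisons above 0.1 for every pair. None of 1540 pairs of arrays was identical.

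The members and the gene lists were chosen with earlier results of these data known. All members are named, and of each list up to 4 genes past the test with the smallest adjusted p in a comparison with vehicle. For each member the 3 most correlated genes were found in each experiment. Alternatives were the filter, the probe set rule, the normalisation, array weights, the prior, the groups in the fit, the replicate block, the Actb ratio, the control mice, the unsettled label and leaving out each mouse.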

Additional observations from a re-analysis of the deposited data

Results flagged for a closer look

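In groups of 4 to 10 mice, 1 value of the 70 sets of values examined (10 members in 7 groups) stood far from the others of its group. Gstm6 in the fifth TS-2 mouse after 2 weeks had an intensity of 681.83, while the nearest TS-2 mouse was at 1590.1 and the farthest at 2087. On the log2 scale, on which the test was run, the gap was 0.757 of the group's range, above Dixon's critical value for 5 mice. Chance alone flags about 1 in 20 such groups. The same mouse had the highest summed macrophage markers of the TS-2 mice, 16573, and the part of that in its Gstm6 value was not tested. No interaction of treatment with time passed for any member.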

How the results depend on the processing

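Of 407 counts of called members recomputed under alternatives, 389 stayed within 1.5 times the reported count and 18 did not, and of 4070 member changes 19 lost a call and 20 gained one. None of the 184 that were called as reported turned sign, while 252 of those not called did. For NTS-1 against vehicle after 2 weeks the count was 1, Gstt2, with array weights, with the Actb ratio as a covariate and with the compared groups alone, and 0 to 1 leaving out each mouse. For TS-2 against vehicle after 2 weeks the replicate block gave 2, losing Gsta4 (adjusted p 0.0887) and Gstm1 (0.0714), and leaving out each mouse gave 4 to 5. For TS-2 against NTS-1 after 2 weeks the replicate block gave 1, losing Gstm3 (1.34, adjusted p 0.0533) with Gsta4 and Gstt2, the compared groups alone gave 2, and leaving out each mouse 2 to 5. The numbers are not shown to pair the mice, so a call lost under the block is no measure of a smaller effect. Array weights gave 1 for TS-2 against NTS-1 at 72 h, Gstp1. Leaving out each mouse gave 0 to 1 for HTS-3 at 16 h against vehicle and against NTS-1. For vehicle at 16 against 8 h averaging all probe sets of a gene gave 1, the intensity trend with a robust prior 1, array weights 4, and leaving out each mouse 0 to 1. The causes were not tested. Array weights added Gsta3 (0.29) and Gstt3 (0.70) for TS-2 against vehicle after 2 weeks, and vehicle mice 1 to 5 alone added Gstt1 (-0.38). Groups of 3 to 5 mice limit the precision.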
